A study of Arabidopsis thaliana with 13 samples.

Results

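The comparison set root tips of the rRBr line at 10 das against root tips of Col-0, the wild type, at the same age, with 3 arrays per line. These are 6 of the 13 Affymetrix ATH1 arrays of the series, chosen by the genotype and the developmental stage in the sample labels, and the other 7 arrays are of 4 and 6 das. In rRBr, an RNA interference construct against RETINOBLASTOMA RELATED (RBR) is driven by the RCH1 promoter in the root meristem, and the background of the line is Col-0. The silencing is thus local, and 1 transgenic line stands for it. Seedlings of both lines were germinated together on Murashige and Skoog medium with sucrose under long days, in 3 repeats, and the tips were dissected under the microscope, so that each array holds the RNA of a mixture of root tip cell types. The age is given as days after sowing in the paper and as days after stratification in the labels. The question was which transcripts differ once RBR has been silenced for this time.

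RBR is the plant homologue of the retinoblastoma protein, which binds E2F transcription factors and holds back the genes that cells need to enter and pass S phase. Among the known targets of E2F are genes of DNA replication, of the histones that package new DNA, and of DNA repair. In the root tip, RBR is also known to restrain divisions of the stem cells around the quiescent centre.

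The values are the deposited log2 RMA values, of which an increase by 1 is a doubling, and they had medians between 5.96 and 6.04 on the 6 arrays. After 64 control probe sets were left out, 22746 were tested, of which 13513 stand for 1 gene, 503 for several genes and 8730 have no gene given here. A gene is named only where a probe set stands for that gene alone. RBR, the silenced gene, was not analysed here, since the probe table used does not list it, so that the silencing was not checked on these arrays. Calls were made with limma in a model of all 13 arrays as 6 groups by line and day, where a probe set passed with a fold change of 1.4 or more and an adjusted p below 0.01.

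Both replicates 1 of 10 das stood apart from the other 4 arrays. EXPA7 and EXPA18, which encode expansins of root hair cells, had a mean log2 value of 8.80, 5.38 and 5.65 on rRBr replicates 1, 2 and 3, against 8.86, 4.69 and 5.12 on the Col-0 replicates. They were thus high on replicate 1 of both lines, and the differences between the lines were 0.37 and 0.40 (adjusted p = 0.998 each). The first rRBr array differed in a further way. On it, 123 probe sets lay at least 1 log2 unit above each of the other 5 arrays of 10 das, against 10 and 2 on the other rRBr arrays and 11, 1 and 0 on the Col-0 arrays. ATHSP22.0, which encodes a small heat shock protein, was 1 of them, with log2 values of 6.54, 4.60 and 4.44 in rRBr, against 4.37, 4.40 and 4.20 in Col-0. At5g37670, chosen after its values were seen, had 8.64, 3.95 and 3.68 in rRBr, against 3.47, 3.65 and 3.67 in Col-0. Its log2 difference of 1.83 fell to 0.15 when both replicates 1 were left out (adjusted p = 0.835 and 0.986). None of the 123 was among the probe sets called below. Such a probe set has a wide spread within rRBr by its definition, so that this does not test the array's effect on the calls.

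**Figure D1:**
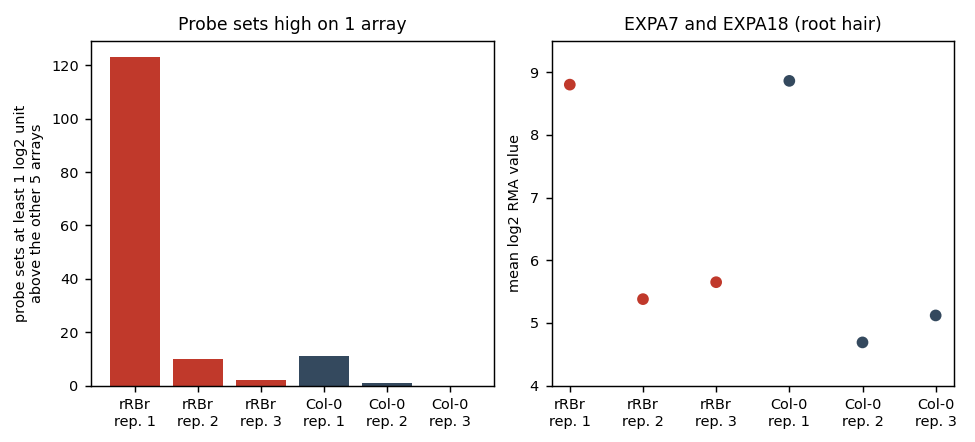
Left, the number of probe sets (bars) that lie at least 1 log2 unit above all other 5 arrays of 10 das, for each array. Right, the mean log2 RMA value of EXPA7 and EXPA18 (points); replicate 1 of both lines is high in root hair transcripts, and rRBr replicate 1 alone has 123 probe sets of the left panel.

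At 10 das, far more probe sets passed with higher than with lower values in rRBr root tips. Of the 22746 probe sets, 65 passed, or 0.286%, of which 57 were higher (0.251%) and 8 were lower (0.0352%). The 57 that were higher had a median log2 difference of 1.06, between 0.56 and 2.69, and 33 of them rose at least 2-fold. The 8 that were lower had a median of -1.33. For all 65 the 3 rRBr values lay on one side of the 3 Col-0 values, which held for 5.28% of all probe sets with rRBr higher and for 4.81% with rRBr lower. Since the 65 were chosen by their difference on these same arrays, their separation follows largely from the choice and adds no support. The median difference of all probe sets was -0.02, and 43.4% were above 0. RMA sets all arrays to 1 distribution, so that this median lies near 0 by construction and differences are relative to the profile as a whole. An unadjusted p under 0.05 was found for 1775 probe sets, or 7.8%. Of the 65, 28 stand for 1 gene (26 higher and 2 lower), 7 are shared by several genes (all higher) and 30 have no gene given here (24 higher and 6 lower). In bulk root tips, fewer cells of a type and less RNA per cell cannot be told apart.

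**Figure D2:**
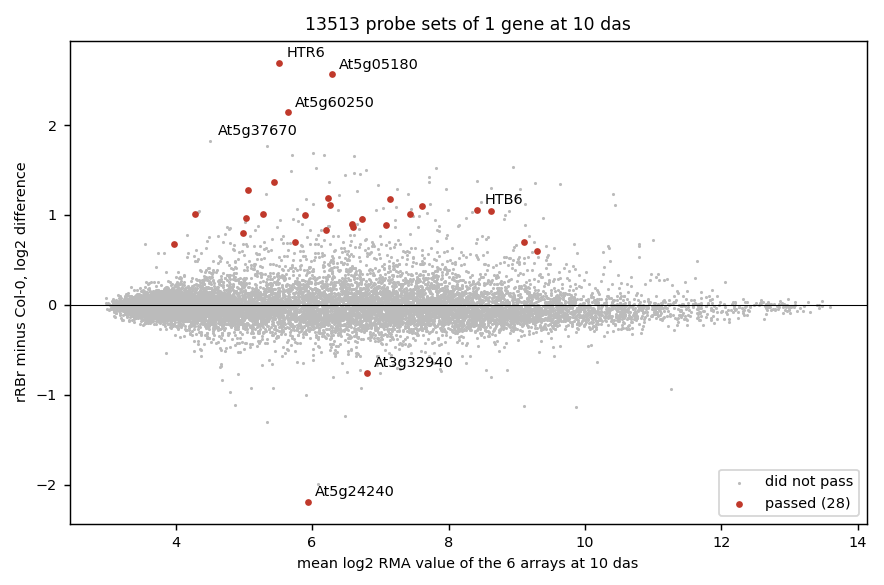
Log2 difference of rRBr minus Col-0 at 10 das (y axis) against the mean log2 RMA value of the 6 arrays (x axis) for 13513 probe sets of 1 gene. The 28 that passed are in red, 26 above and 2 below 0; At5g37670 is high on 1 rRBr array alone and did not pass.

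The number of calls depended on the arrays that entered the model. With the 10 das arrays alone, none passed in limma. In that fit 1370 of the 22746 probe sets had an unadjusted p under 0.05, against 1775 (7.8%) in the model of all arrays. Without the 4 das arrays, which add to the estimate of the spread, 2 passed. Leaving out rRBr 10 das replicates 1, 2 or 3 left 47, 10 and 13 calls, and leaving out Col-0 10 das replicates 1, 2 or 3 left 32, 19 and 15. Leaving out 1 array of 4 das left 29 or 32, and leaving out 1 array of 6 das left 57 or 65. Without both replicates 1 of 10 das, 28 passed, of which 23 were among the 65. With the limit on the adjusted p at 0.05 and the same fold change, 175 passed (0.769%).

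HTR6 (At1g13370), which encodes a variant of histone H3, had the largest rise of all genes called. Its log2 values were 7.20, 6.70 and 6.68 in rRBr, against 4.03, 4.33 and 4.14 in Col-0. The Col-0 values lie around the lower quartile of the arrays (4.17 to 4.24), so that the transcript was near the low end of the scale in the wild type and well above it in rRBr. The difference was 2.69 (standard error 0.18, fold change 6.47, adjusted p = 6.19e-04), and within the numbered pairs of arrays it was 3.17, 2.37 and 2.54. The call held whichever of the 13 arrays was left out (highest adjusted p = 0.0069) and without both replicates 1 (adjusted p = 0.00411). A second probe set, shared by At1g13370 and At1g75600, had 4.79, 5.06 and 4.91 in rRBr, against 3.22, 3.23 and 3.07 in Col-0, and also passed (difference 1.75, adjusted p = 0.00492). The own probe set of HTR14 (At1g75600), another H3 variant, had 4.09, 3.74 and 3.83 in rRBr, against 3.11, 3.25 and 3.28 in Col-0. The groups did not overlap, but the difference of 0.67 missed the limit (adjusted p = 0.0403). HTR12, the centromeric H3, HTR10 (MGH3), an H3 variant of male gametes, and HTR15 (At5g12910) had differences of 0.39, 0.24 and 0.01 (adjusted p = 0.486, 0.566 and 0.998).

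Genes of histone H2B, a component of every nucleosome, were the largest group among the named calls. Of 11 H2B genes listed, 10 were measured, of which 4 rose and none fell, against 0.251% of all probe sets that rose. The median log2 difference of the 10 was 0.77, against -0.02 over all probe sets. HTB6 (At3g53650) had 8.94, 8.93 and 8.97 in rRBr, against 7.78, 8.08 and 7.81 in Col-0. The 3 rRBr arrays differed by less than 0.05, and the difference of 1.06 (standard error 0.08, adjusted p = 0.00118) held whichever array was left out. HTB7 (At3g09480) had 9.12, 9.05 and 9.28 in rRBr, against 7.94, 8.28 and 8.10 in Col-0. HTB10 (At5g02570) had 6.91, 7.09 and 7.08, against 6.19, 6.16 and 6.13. Neither gene overlapped between the lines, with differences of 1.04 and 0.87 (adjusted p = 0.00302 and 0.00494). HTB5 (At2g37470), with 9.57, 9.59 and 9.62 in rRBr, against 8.92, 9.08 and 8.98 in Col-0, rose by 0.60 (adjusted p = 0.00642). That call ended when the replicate number was taken as a block (adjusted p = 0.0146).

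The 6 other H2B genes did not pass. HTB3 (At2g28720) had the largest H2B difference of all, 1.43, with 8.32, 8.34 and 8.63 in rRBr, against 6.95, 7.02 and 7.04 in Col-0. Its standard error of 0.20, from the spread over all 3 days, was more than that of the H2B genes called, and the adjusted p was 0.0138. HTB2 had a difference of 0.97 (adjusted p = 0.0198) and passed with the replicate block (adjusted p = 0.00725). HTB1, HTB4 and HTB11 had differences of 0.68, 0.30 and 0.25 (adjusted p = 0.0545, 0.477 and 0.49). HTB8 (At1g08170) had a difference of -0.03 (adjusted p = 0.996) and was the only 1 of the 10 whose values overlapped between the lines. Over all probe sets, 5.28% did not overlap with rRBr higher.

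All 7 called probe sets that match several genes are of histones H3 and H4. They are 7 of 14 probe sets shared by such genes, while 0.251% of all probe sets were called higher. For all 14 the 3 rRBr values lay above the 3 Col-0 values, with a median log2 difference of 0.70. Such a separation held for 5.28% of all probe sets. The signal of the shared probe sets cannot be split among the genes. For 5 loci annotated as H3.1, the H3 of replicating chromatin, 1 probe set had 12.18, 12.26 and 12.16 in rRBr, against 11.31, 11.45 and 11.44 in Col-0 (difference 0.80, adjusted p = 0.00215). Of the 5 probe sets for these loci, 2 passed. For 3 loci annotated as H3.3, the replacement variant, a probe set had 12.51, 12.67 and 12.56 in rRBr, against 11.56, 11.56 and 11.71 in Col-0 (difference 0.97, adjusted p = 0.00215). The 3 probe sets of these H3.3 loci disagree in size, with differences of 0.97, 0.67 and 0.19, of which the last did not pass (adjusted p = 0.419). Of 5 probe sets shared by 8 H4 loci, 2 passed, and 1 of them, with 13.45, 13.48 and 13.32 in rRBr, against 12.68, 12.74 and 12.71 in Col-0, rose by 0.71 (adjusted p = 0.00492). The other H4 call, a difference of 0.68, ended with the replicate block (adjusted p = 0.0104).

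The linker histones, which bind the DNA between nucleosomes, were higher in rRBr without a call. HON1 (At1g06760) had 11.16, 11.57 and 11.34 in rRBr, against 10.66, 10.52 and 10.74 in Col-0, a difference of 0.72 (adjusted p = 0.016). HIS1-3 and HON2 (At2g30620) had 0.58 and 0.26 (adjusted p = 0.293 and 0.189). None of the 3 overlapped between the lines, while 5.28% of all probe sets did not overlap with rRBr higher. Among all 18 histone genes measured by an own probe set, 5 rose, against 0.251% of all probe sets, and none fell. Of the 18, 15 did not overlap with rRBr higher, against 5.28% of all probe sets. The median log2 difference of the 18 was 0.64, against -0.02 over all probe sets. H2A genes were not analysed here.

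**Figure D3:**
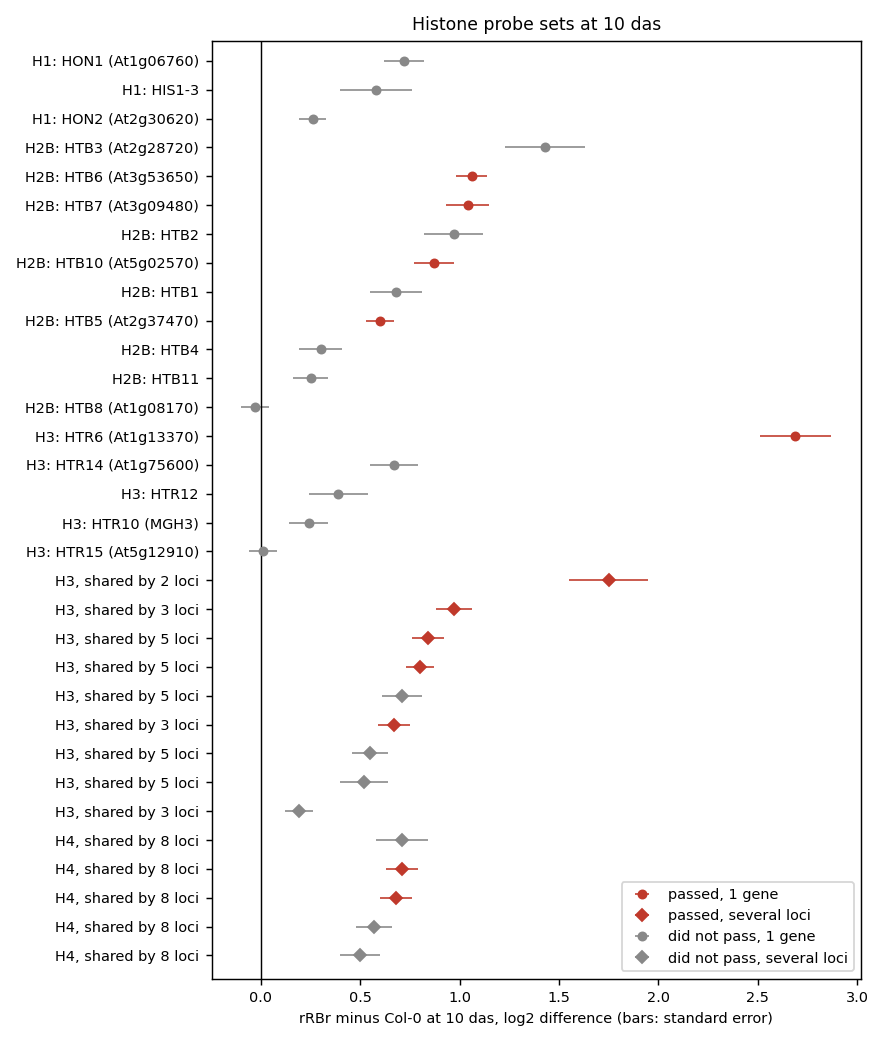
Log2 difference of rRBr minus Col-0 at 10 das (x axis, points; bars are standard errors from limma) for 18 histone genes measured alone (circles) and 14 probe sets shared by H3 or H4 loci (diamonds). Red marks the 12 that passed; all values except that of HTB8 lie above 0.

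Among the inhibitors of cyclin-dependent kinases, SMR8 (At1g10690), of the SIAMESE-RELATED family that stops mitotic cycles, rose in rRBr. Its log2 values were 7.08, 7.36 and 7.18 in rRBr, against 6.33, 6.10 and 6.33 in Col-0. The groups lay 0.75 apart at their nearest, and the difference was 0.95 (standard error 0.10, adjusted p = 0.00389). SMR6 (At5g40460) had 6.59, 6.58 and 6.62 in rRBr, against 5.80, 6.10 and 5.85 in Col-0, without overlap, and its difference of 0.68 did not pass (adjusted p = 0.0166). SMR3, SMR2 and SIM had differences of 0.59, 0.04 and -0.19 (adjusted p = 0.666, 0.998 and 0.904). Only 5 of 16 listed inhibitors were measured, and 1 of these passed, against 0.286% of all probe sets, with a median difference of 0.59.

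At5g60250 rose strongly. It is on the list of DNA damage genes and its product carries a RING zinc finger. It had 6.16, 7.23 and 6.76 in rRBr, against 4.56, 4.74 and 4.42 in Col-0. The rRBr arrays spread over more than 1 log2 unit, with replicate 1 the lowest, yet the lowest rRBr value was 1.42 above the highest of Col-0. The difference was 2.14 (standard error 0.25, fold change 4.42, adjusted p = 0.00567) and was 2.42 without both replicates 1 (adjusted p = 0.00655). The 8 other probe sets of that list, for 7 genes of repair, did not pass. RTEL1 and FANCM, helicases of crosslink and recombination repair, had differences of 0.45 and 0.41 (adjusted p = 0.581 and 0.678), and FAN1, a nuclease, had -0.20 (adjusted p = 0.928). ATLIG4, the DNA ligase that joins broken ends, had 0.06 (adjusted p = 0.998). With a median of 0.03 over the 9 probe sets, the list lay close to the median of all.

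Of 55 genes listed for DNA replication, 10 were measured. These 10 had differences above 0, and none was called (limma, 5 at an unadjusted p under 0.05, which 7.8% of all probe sets had). Their median log2 difference was 0.33, against -0.02 over all probe sets. Of the 10, 4 did not overlap with rRBr higher, against 5.28% of all probe sets. PRL, the MCM7 subunit of the replicative helicase, had 9.47, 9.76 and 9.60 in rRBr, against 8.57, 9.07 and 9.08 in Col-0, a difference of 0.70 (adjusted p = 0.0583). ATIM, the homologue of the fork protein TIMELESS, had 7.07, 7.31 and 7.30, against 6.33, 6.71 and 6.68, a difference of 0.65 (adjusted p = 0.039). In both genes replicate 1 was the lowest of its line. ICU2, which makes the catalytic part of polymerase alpha, and POLA3, of the primase, had 0.59 and 0.42 (adjusted p = 0.12 and 0.293), and POLD3, of DNA polymerase delta, had 0.05 (adjusted p = 0.998).

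Of 22 chromatin genes listed, 4 were measured on 5 probe sets, of which 1 passed, against 0.286% of all probe sets. Of these genes, chr31, a remodeller of the SNF2 family, passed on 1 of 2 probe sets. That probe set had 4.38, 4.28 and 4.29 in rRBr, against 3.64, 3.63 and 3.64 in Col-0, a rise of 0.68 (standard error 0.06, adjusted p = 0.00215) in the low range of the arrays. The other probe set had 4.01, 4.05 and 4.12, against 3.93, 4.01 and 4.14, with overlap and a difference of 0.03 (adjusted p = 0.997). The 2 probe sets of this gene thus disagree. CHR17, of the ISWI family, had a difference of 0.66 (adjusted p = 0.156). Those of SGA2 and ASF1B, which encode chaperones of histones H3 and H4, were 0.15 and 0.11 (adjusted p = 0.989 and 0.985). Of 27 genes listed for mitosis and cytokinesis, 3 were measured. These, the Aurora kinase genes AUR1, AUR2 and AUR3, had differences of 0.18, 0.29 and 0.46 and did not pass (adjusted p = 0.965, 0.904 and 0.693).

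Other genes with a known protein rose as well. The serine carboxypeptidase-like gene scpl20 had 8.11, 8.04 and 8.32 in rRBr, against 6.92, 7.20 and 7.04 in Col-0, a difference of 1.10 (standard error 0.11, adjusted p = 0.00245). A second gene of that family, scpl48, which is on the list of developmental cell death, had 9.53, 9.67 and 9.62, against 8.17, 8.54 and 8.44, and its difference of 1.22 missed the limit (adjusted p = 0.0139). Both genes lay more than 0.8 apart between the lines. PASPA3 (At4g04460), an aspartic protease of the same list, had a difference of 0.97 (adjusted p = 0.0628), and DMP4 and EXI1 had 0.36 and -0.51 (adjusted p = 0.942 and 0.737), so that none of the 4 measured genes of the 8 on this list passed (limma, 2 at an unadjusted p under 0.05, against 7.8% of all probe sets).

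AER encodes an alkenal reductase, an enzyme that detoxifies reactive carbonyls. It had 6.28, 6.65 and 6.26 in rRBr, against 5.34, 5.39 and 5.47 in Col-0, a rise of 1.00 (adjusted p = 0.00563). SRC2, named after a soybean gene regulated by cold, had 9.45, 9.42 and 9.52 in rRBr, against 8.90, 8.59 and 8.79 in Col-0, a rise of 0.70 (adjusted p = 0.0057). At5g05110, of the cystatin family of protease inhibitors, rose by 1.11 (adjusted p = 0.00653), but not with the replicate number as a block (adjusted p = 0.0127). At1g70550, with a domain of unknown function, had 7.60, 8.08 and 8.13 in rRBr, against 6.88, 6.92 and 6.98 in Col-0, a rise of 1.01 (adjusted p = 0.00944). None of these genes overlapped between the lines.

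At5g05180, a locus without a name in the annotation, had the second largest rise, with 7.43, 7.52 and 7.77 in rRBr, against 4.38, 5.36 and 5.29 in Col-0. Its difference was 2.56 (standard error 0.31, fold change 5.91, adjusted p = 0.00632), with Col-0 replicate 1 low beside the other Col-0 arrays. Such loci made up much of the rest. At5g47070 had 5.43, 5.59 and 5.53 in rRBr, against 4.55, 4.57 and 4.53 in Col-0, and its rise of 0.97 (standard error 0.07, adjusted p = 0.00115) held whichever array was left out. The rises of At5g18470, At4g18450, At5g65300, At3g28500, At1g71140 and At3g55890 were 1.37, 1.28, 1.19, 1.18, 1.01 and 1.01 (adjusted p between 0.00215 and 0.00632). Those of At2g32560, At1g07280, At2g34930, At2g18600 and At1g52100 were 0.90, 0.89, 0.84, 0.80 and 0.70 (adjusted p between 0.00245 and 0.00953). Of these loci, At5g18470 and At1g52100 lost the call under the replicate block (adjusted p = 0.0106 and 0.0152).

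**Figure D4:**
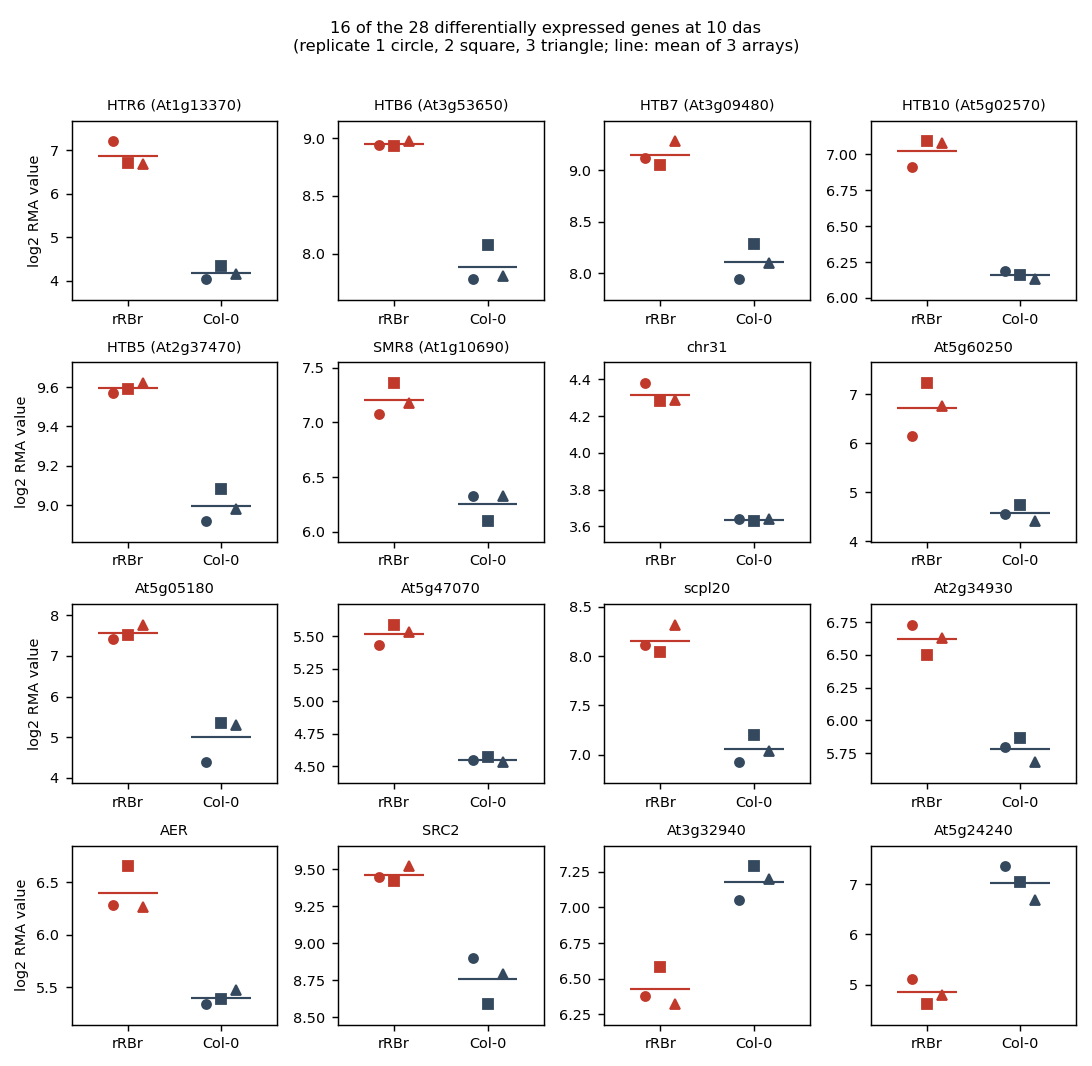
Log2 RMA values (y axis) of 16 differentially expressed genes on the 3 rRBr arrays (red, left) and the 3 Col-0 arrays (dark blue, right) of 10 das, with a symbol for each replicate number and a line at the mean. In every panel the lines do not overlap, and only At3g32940 and At5g24240 are lower in rRBr. The genes were called on these same arrays, so that the separation follows largely from the choice.

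Of the 28 calls of genes, only those of HTR6, HTB6 and At5g47070 held without each of the 13 single arrays, and every other call ended without at least 3 of them. Without rRBr 10 das replicates 1, 2 and 3, 17, 4 and 3 of the 28 were called, and without Col-0 10 das replicates 1, 2 and 3, 12, 7 and 5. Without 1 array of 4 das 11 or 13 were called, and without rRBr 6 das replicate 1 or 2, 19. The direction of all 28 was the same in every one of these fits.

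Only 2 named genes fell. At5g24240, a phosphatidylinositol 3- and 4-kinase gene, had 5.12, 4.61 and 4.80 in rRBr, against 7.36, 7.05 and 6.68 in Col-0. It fell by 2.19 (standard error 0.20, adjusted p = 0.00215), with 1.56 between the nearest values of the lines. At3g32940, which encodes an RNA-binding protein of the KH type, had 6.38, 6.58 and 6.32 in rRBr, against 7.05, 7.29 and 7.20 in Col-0, and fell by 0.75 (adjusted p = 0.00642). Leaving out any 1 of 12 arrays ended that call (highest adjusted p = 0.0367). With a fold change of 1.4 or more, 8 genes with lower and 42 with higher values in rRBr had an adjusted p between 0.01 and 0.05 and were not called. QQS, a gene of Arabidopsis thaliana that affects starch content, had 4.41, 4.18 and 4.36 in rRBr, against 5.22, 5.59 and 5.03 in Col-0, a difference of -0.96 (adjusted p = 0.0198). The kinase gene WNK7 and the calmodulin-like gene CML30 had -0.92 and -0.54 (adjusted p = 0.0277 and 0.0487), At5g35940 had -1.14 and At1g10810 had -0.93 (adjusted p = 0.0403 and 0.0191).

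Among the 42 genes with higher values that missed the limit, the largest differences were 1.76 for At1g54020, 1.69 for At4g35720, 1.54 for At1g23160 and 1.52 for At5g06330 (adjusted p between 0.0148 and 0.0443). JAL33, a lectin related to jacalin, had 11.12, 10.97 and 10.99 in rRBr, against 9.59, 10.19 and 9.61 in Col-0, a difference of 1.23 (adjusted p = 0.0207). At1g73340, of the cytochrome P450 family, had a difference of 1.12 (adjusted p = 0.037) and passed in the fit with the block (adjusted p = 0.00726). With the block, 17 genes passed that did not without it, 14 higher and 3 lower. The calmodulin-like gene CML23 was 1 of them, with 7.53, 7.74 and 7.80 in rRBr, against 6.57, 7.01 and 6.65 in Col-0 (difference 0.95, adjusted p = 0.0816 without and 0.00513 with the block). Others were At5g17650, At5g03510 and At2g34340, with differences of 1.37, 1.29 and 1.24 (block adjusted p = 0.00258, 0.00529 and 0.0061), and At5g35940, At2g41190 and At3g28950 among the lower ones (block adjusted p = 0.00954, 0.00717 and 0.00999).

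The other days show how the transcripts called at 10 das stood before. The 57 probe sets that were higher had median log2 differences of 0.40, 0.63 and 1.06 on days 4, 6 and 10, and 51 and 54 of them were also above 0 at 4 and 6 das. The 8 that were lower had medians of -1.32, -1.41 and -1.33. Since the probe sets were chosen at 10 das, a smaller size on the other days is in part a result of the choice. The change of the difference itself passed for 1 probe set between 10 and 4 das (0.0044%; adjusted p under 0.05) and for none between 10 and 6 das (0%). In limma, 695 (3.06%) and 390 (1.71%) probe sets had an unadjusted p under 0.05 for these 2 changes. Both shares are less than a limit of 0.05 passes on average where nothing changes. A single Col-0 array stands for 6 das.

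Among the arrays of 6 das, rRBr replicate 1 also stood apart, with a mean of EXPA7 and EXPA18 of 8.89, against 5.72 on rRBr replicate 2 and 6.00 on the Col-0 array. Without it the medians of 6 das were 0.58 for the probe sets called higher and -1.37 for those called lower.

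On its own probe set, HTR6 had differences of 0.57 at 4 das and 1.30 at 6 das before that of 2.69 at 10 das. Its rRBr values were 4.66 and 4.58 on day 4 and 5.73 and 5.08 on day 6, against Col-0 values between 4.02 and 4.10. Without rRBr 6 das replicate 1 its difference at 6 das was 0.98. The values thus ordered by day in rRBr without overlap and stayed low in Col-0, but the change of 2.12 between 10 and 4 das did not pass (standard error 0.29, adjusted p = 0.176). The probe set shared by At1g13370 and At1g75600 had differences of 0.07, 0.84 and 1.75 at 4, 6 and 10 das. HTB6 had 0.61, 1.02 and 1.06 at 4, 6 and 10 das. At5g60250, At5g05180 and At5g24240 had differences of similar size on all days, with 2.03, 1.88 and 2.14 for At5g60250, 2.35, 2.68 and 2.56 for At5g05180, and -2.21, -1.75 and -2.19 for At5g24240. Other genes had hardly any difference at 4 das. The log2 differences of scpl20 were 0.07, 0.64 and 1.10 at 4, 6 and 10 das, those of At5g65300 were 0.04, 0.51 and 1.19, and those of SRC2 were -0.07, 0.14 and 0.70. The changes of these 3 between 10 and 4 das were 1.03, 1.16 and 0.77 and did not pass (adjusted p = 0.252, 0.266 and 0.266).

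At2g34930 is the only gene for which a change of the difference between days was called in the model of all arrays. For genes that missed that limit, a change is neither shown nor excluded. At 10 das At2g34930 had 6.73, 6.50 and 6.63 in rRBr, against 5.80, 5.87 and 5.68 in Col-0. At 4 das it had 6.23 and 6.25 in rRBr, against 7.12 and 7.19 in Col-0, and at 6 das 6.09 and 6.21, against 6.31. The sign of the difference was thus opposite at 4 and 10 das, with -0.92 and 0.84, and the change of 1.75 passed (standard error 0.13, adjusted p = 0.00452). Col-0 values were lower at 10 das than at 4 das, while rRBr values were higher. The call of the change ended without each of the 4 arrays of 4 das.

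**Figure D5:**
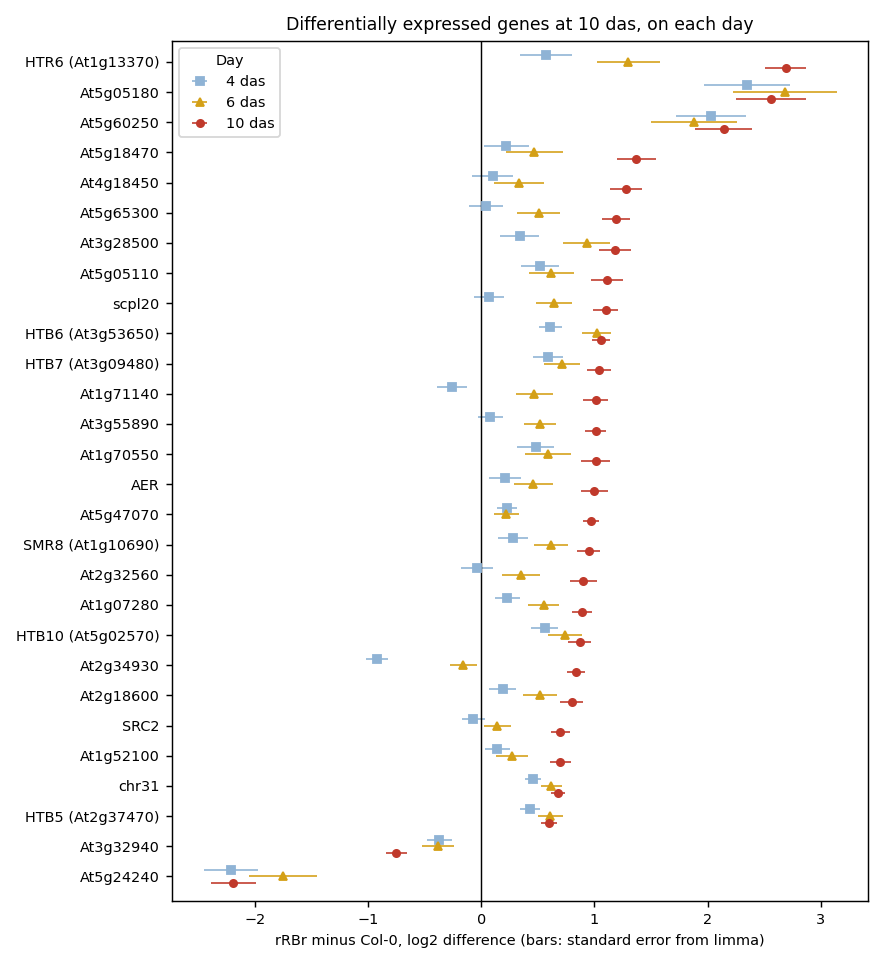
Log2 difference of rRBr minus Col-0 (x axis, points; bars are standard errors from limma) at 4 das (squares), 6 das (triangles) and 10 das (circles) for the 28 genes called at 10 das, ordered by the 10 das value. HTR6 had 0.57, 1.30 and 2.69, and At2g34930 is the only gene with a called change between 4 and 10 das.

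Of families outside the cell cycle, members found by gene symbol with a probe set of their own were counted. At 10 das none passed among 18 expansin genes, 9 genes of xyloglucan hydrolases, 7 of the cellulose synthase family, 23 with a cytochrome P450 symbol, 14 of glutathione S-transferases, 6 of WRKY factors, 11 of auxin response, 5 of plant defensins and 7 of tubulins. Of these 100 genes, 8 had an unadjusted p under 0.05 in limma, against 7.8% of all probe sets, and with 0.207% of the probe sets of 1 gene called, no call among 100 is not a result about these families. Their median log2 differences lay between -0.14 and 0.12. By family, the members farthest from 0 included GSTL3 with -1.24, EXLA1 with 0.83, XTH16 with -0.72, WRKY22 with 0.65, CYP71B26 with -0.53 and GH3.17, which conjugates auxin, with 0.51 (adjusted p = 0.392, 0.299, 0.762, 0.107, 0.915 and 0.12). GSTL3 had 6.49, 5.00 and 6.11 in rRBr, against 7.54, 6.78 and 7.00 in Col-0, so that the lines did not overlap and the spread within rRBr was more than the gap.

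Markers of cell types were few on the probe sets of 1 gene. AGL42 and BBM, expressed in the quiescent centre and the stem cell niche, had differences of -0.55 and 0.00 (adjusted p = 0.499 and 1), and their mean value was 6.20, 6.20 and 6.14 in rRBr, against 6.25, 6.67 and 6.44 in Col-0. The shoot genes LHCB4.1, LHCB4.2 and LHCB4.3 had differences of -0.11, 0.03 and 0.12 and mean values of 5.28 to 5.37 in rRBr, against 5.14 to 5.51 in Col-0. Markers of root cap, endodermis and vasculature were not analysed here. The number of arrays, 3 per line, limits the precision of every value given.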

How the data were processed

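RNA of dissected root tips was hybridised to Affymetrix ATH1 arrays, 1 per biological replicate. Per the submitters' processing notes and the paper, the authors made the deposited log2 values by RMA (background correction, quantile normalization and summary per probe set) with affy of Bioconductor, whose versions are not given in the sources used here. No 2 arrays held identical values (0 pairs). The deposited log2 values were used without further normalization in R 4.3.3, and no genome build is needed for them. Of 22810 probe sets, 64 controls were left out. Of 13513 probe sets of 1 gene, 13484 matched the RefSeq annotation of TAIR10.1 by gene identifier or locus tag. Where that annotation gives no symbol, names such as HTB6, HTR6 and SMR8 follow the usual nomenclature of the locus.

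The test was limma 3.58.1 (lmFit, then eBayes) on 13 arrays in 6 groups by line and day, with Benjamini-Hochberg adjustment over 22746 probe sets, with p two-sided. The change of the difference between days was called at an adjusted p under 0.05. The fit was tested on simulated data. The labels state that both lines were germinated together in repeats. After removal of group means, the arrays of 10 das with the same number correlated across probe sets (0.79, 0.60 and 0.63). Unlike numbers correlated as well, with 0.56 for rRBr 2 and Col-0 3 and 0.41 for rRBr 3 and Col-0 2. With replicate 1 of both lines apart, this check cannot tell whether numbers 2 and 3 are pairs. A fit with the number as a block over all 13 arrays was added, although the check covered 10 das alone. Named are all called genes, the largest rises and falls that missed the limit, genes called with the block alone, called or largest members of gene lists and markers; At5g37670 was named after its values were seen, and peptide deformylases were taken off the defence list after a check of its members. Members and lists were chosen with earlier results of these data known. Alternatives were other sets of arrays, weights for arrays, eBayes with trend and robust estimation, a second quantile normalization, centring of each array on its median, a filter on mean values under 5 and other limits.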

Additional observations from a re-analysis of the deposited data

Results flagged for a closer look

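At2g34930 was picked out because its difference between rRBr and Col-0 at 10 das differs from that at 4 das by the test of the change itself. The change was 1.75 on the log2 scale (adjusted p = 0.00452 in limma), with a difference of 0.84 at 10 das and -0.92 at 4 das. All 3 rRBr arrays lay above all 3 Col-0 arrays at 10 das, and both rRBr arrays lay below both Col-0 arrays at 4 das.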

How the results depend on the processing

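The number of probe sets called at 10 das, 65, was 93 with the replicate block (58 of the 65 among them), 71 with a trend and robust variance, 60 with quantile normalization again, 59 with centring on the medians, 50 with the mean value filter, 57 without the 6 das arrays and 65 without a limit on the fold change. With the 10 das arrays only it was 0, and 1370 of 22746 probe sets had an unadjusted p under 0.05 (1775 with all arrays). It was 32 with the 10 das arrays only and the replicate block, 235 with array weights and 28 without both arrays of number 1. Without the 4 das arrays it was 2, and at an adjusted p under 0.05 it was 175. Without single arrays it lay between 10 and 65. The number called for the change between 10 and 4 das, 1, was 1 with the replicate block, 25 with array weights, 3 with quantile normalization again and 4 without the 6 das arrays, and it lay between 0 and 4 without single arrays. For the change between 10 and 6 das it was 0 in all fits that give it. Of the 28 genes called, 24 kept the call with the replicate block, 28 with array weights, 19 without the 6 das arrays and 9 without both arrays of number 1, and none of the 28 changed sign. With 3 arrays per line, the call rests on the spread shared with the other days, and the cause of the lower counts was not tested.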

Other observations

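The 3 pairs of arrays with the same number differed in how many probe sets changed at least 2-fold. In pair 1, 294 were higher and 39 lower in rRBr than in Col-0, in pair 2, 184 and 55, and in pair 3, 141 and 34. The SD of all differences was 0.34, 0.28 and 0.24. Of the 57 probe sets called higher, 7 had a Col-0 mean under the lowest lower quartile of the arrays (4.17), where a fold change may be understated. Of the 30 called probe sets with no gene given here, the 24 that were higher in rRBr had differences of 0.56 to 2.62 with a median of 1.31, and the 6 that were lower had a median of -1.33.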
